A study of Mus musculus with 12 samples.

Results

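Transcripts of 7 muscle ubiquitin ligase genes and 3 FoxO transcription factor genes were examined in the tibialis anterior of Smyd1 conditional knockout (CKO) mice and controls. The 10 genes, Trim63, Trim55, Trim54, Fbxo32, Fbxo30, Fbxo40, Fbxo21, Foxo1, Foxo3 and Foxo4, were taken by symbol. All 10 were found among the 23923 genes of the files, and all 10 were among the 12695 genes that reached 0.1 FPKM in 6 or more of the 12 libraries. FPKM counts the fragments of a gene, divided by the length of its transcript and by the number of fragments mapped in the library, so levels of different genes can be compared per length.

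Total RNA of the tibialis anterior, a fast-twitch muscle of the lower hindlimb, was depleted of ribosomal RNA and sequenced from 6 controls and 6 CKOs at 6 weeks of age, with 1 library per mouse. Controls were Myf6 cre/+; Smyd1 flox/+ and CKOs were Myf6 cre/+; Smyd1 flox/-, on a mixed C57BL6/J;129S1/SvImJ background. Controls therefore carried Cre as well, and their floxed allele was subject to the same recombination. The breeding scheme also gave mice of both groups a Rosa26 YFP reporter allele. Cre is expressed from the Myf6 locus, with recombination in muscle fibers from about birth, so other cells of the tissue keep the floxed allele. Those of CKOs carry it beside a null allele, and those of controls beside a wild-type allele. The paper describes Smyd1 expression as specific to striated muscle. The libraries were made from whole muscle, in which a lower share of a cell type and less RNA per cell cannot be told apart.

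Ubiquitin ligases attach ubiquitin to proteins and so mark them for breakdown by the proteasome. The MuRF proteins, encoded by Trim63, Trim55 and Trim54, are RING finger ligases of the sarcomere and the microtubules of striated muscle. F-box proteins such as atrogin-1, encoded by Fbxo32, bring substrates to SCF ligase complexes. In fasting, denervation or disuse, FoxO factors that escape phosphorylation by Akt enter the nucleus and raise transcription of Trim63, Fbxo32 and several other genes, the class of transcripts named atrogenes.

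Short stretches of promoter are shown for the 3 ligase genes whose window held a FoxO core or an E-box, since the per-mouse results turn on Trim63, Trim54 and Fbxo40. The windows span 250 bases before to 50 bases after the RefSeq transcription start (GRCm38.p6, another build than the mm9 to which the reads were aligned). Capitals mark the motif, GTAAACA for the FoxO core and CAGCTG for the E-box of myogenic factors. CAGCTG is its own reverse complement, and GTAAACA was searched on both strands.
Trim63, FoxO core as its reverse complement, chr4:134314915-134314943, + strand: cagtctgttctTGTTTACgacccccacgg
Trim63, E-box, chr4:134315037-134315065, + strand: tgcggaatgctCAGCTGgtcccctcctgg
Trim54, E-box, chr5:31116488-31116516, + strand: cagtccggggaCAGCTGtggctcacctta
Fbxo40, E-box, chr16:36990531-36990559, - strand: gagcaagaggcCAGCTGcttctcccccag
Fbxo40, E-box, chr16:36990503-36990531, - strand: gctcctggacaCAGCTGgacctgcccacg
Fbxo40, E-box at another start, chr16:36979208-36979236, - strand: tagccccagcaCAGCTGaagacactaggt
The FoxO core of Trim63 begins at position -194 from the start. It was the only FoxO core in the 8 windows of the 7 members with a window, and 3.65% of all 32851 windows held one. The E-box occurred in 4 of these 8 windows, of 3 members, and in 16.3% of all windows. The windows of Fbxo30, Fbxo21, Foxo1 and Foxo3 held neither motif, which says only that these letters are not in these windows. Trim55, Fbxo32 and Foxo4 were not examined for motifs.

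The libraries of each group correlated at 0.9435 to 0.972 across the genes tested, and their relative depth differed by up to 1.80-fold. The sum over 11 fast-twitch fiber genes was 24638 to 41718 FPKM in controls and 28228 to 34208 in CKOs, so the libraries had the markers of the labelled muscle. Within this list Myh1 was above all controls in 6 CKOs and Myh4 in 5, while Actn3 and Tnnc2 were below all controls in 4. The sum over 8 slow-twitch genes was 22.1 to 57.6 FPKM in controls, and was 155 in CKO 1, 93.0 in CKO 3 and 322 in CKO 6 against 30.3 to 40.9 in the other 3 CKOs. The genes of this list did not all follow the sum. Myl3, at 26.6 of the 41.9 FPKM in control 2, was above all controls in 0 CKOs and below them in 2. Myh7, Tnni1 and Tpm3 were above all controls in 4 CKOs, with CKO 4 at 2.51, 1.21 and 7.72 FPKM. Myl2, Tnnt1, Tnnc1 and Atp2a2 were so in 3. The sum over 3 satellite cell genes, Pax7, Myf5 and Calcr, was 0.500 to 0.983 FPKM in controls and 1.30 to 1.97 in CKOs, without overlap. None of the 3 genes separated the groups alone. Pax7 and Myf5 were each above all controls in 4 CKOs and Calcr in 0, at low levels where few fragments stand behind a value. Sums over 4 macrophage genes were 1.72 to 6.18 and 2.08 to 4.82 FPKM. Smyd1 itself was read at 47.1, 33.4, 41.1, 33.0, 33.8 and 36.1 FPKM in controls 1 to 6 and at 38.0, 32.1, 32.5, 27.8, 39.9 and 34.4 FPKM in CKOs 1 to 6. The ranges overlapped (log2 fold change -0.13, standard error 0.12, adjusted p = 0.545 by limma). After the median-ratio scaling described below, 5 of 6 CKOs were below all controls. The log2 fold change was then -0.32 (standard error 0.083, unadjusted p = 0.001805, adjusted p = 0.07965 by limma). A value for the whole gene does not separate floxed, recombined and null transcripts, so it does not check the genotype labels.

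Differences between the groups are given as log2 fold changes of CKO over control on log2(FPKM + 0.1), from limma fitted to all 12695 genes, with p-values adjusted by the Benjamini-Hochberg method over these genes. With the FPKM as deposited, the median log2 fold change of all genes was 0.18 and 77.9% of genes had a positive value. Scaling each library by the median ratio of its FPKM to the geometric mean across libraries brought the median to 0.01. Each member is therefore described with both.

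The levels of the 10 genes fell into 3 tiers in the controls, and the tiers are separated where the ranges of neighbours did not overlap. The top tier held Trim54 (41.0 ± 6.29 FPKM, SD, n = 6), Trim63 (38.0 ± 20.1) and Fbxo40 (30.9 ± 4.44). Their means lay at the 97.7, 97.3 and 96.9 percentiles of the genes tested. The ranges of these 3 neighbours overlapped. The middle tier held Fbxo32 (15.3 ± 4.43 FPKM), Trim55 (10.4 ± 1.07) and Foxo4 (9.75 ± 0.668), again with overlapping ranges. The lowest tier held Fbxo30 (2.92 ± 0.428 FPKM), Foxo1 (2.02 ± 0.739), Foxo3 (1.57 ± 0.379) and Fbxo21 (0.984 ± 0.2498). The ranges of Fbxo40 and Fbxo32 did not overlap, and neither did those of Foxo4 and Fbxo30.

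None of the 10 genes passed an adjusted p of 0.05, which 2.02% of all genes passed as higher and 0.268% as lower. With an unadjusted p under 0.05, Foxo3 was higher, against 18.1% of all genes, and Trim54 was lower, against 1.76%. After median-ratio scaling again none passed the adjusted threshold, which 0.764% of genes passed as higher and 0.709% as lower. At the unadjusted threshold Foxo3 was then higher (6.62% of all genes) and Trim54, Trim55 and Fbxo40 were lower (7.44%). No member had groups without overlap, in either direction, with either scaling. Such genes were 2.23% (CKO higher) and 0.189% (CKO lower) of all genes as deposited. After scaling they were 0.788% and 0.74%. The median log2 fold change of the 10 genes was -0.05 as deposited and -0.24 after scaling. In both cases 7 of the 10 lay below the median of all genes.

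**Figure D1:**
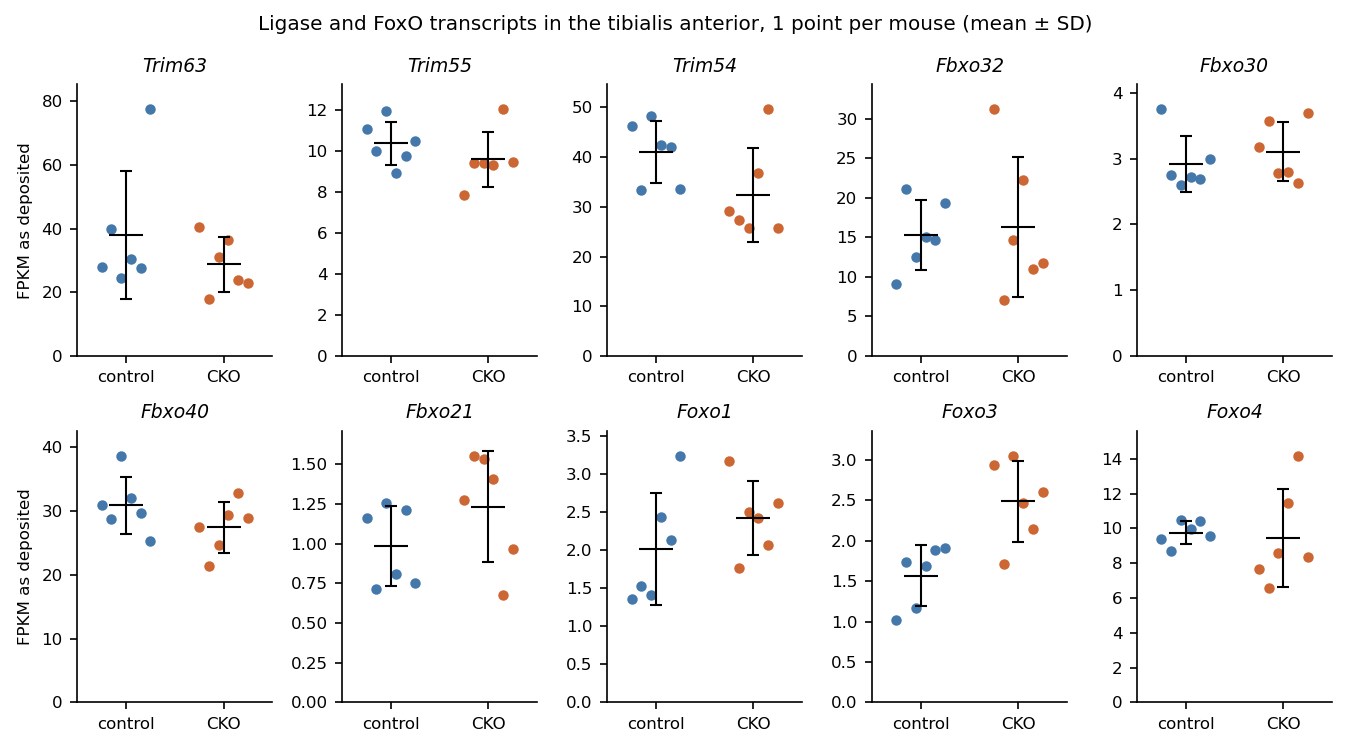
FPKM as deposited (vertical axes, each from 0) of the 10 genes in controls and Smyd1 CKOs. Points are mice, and horizontal lines with bars are the mean ± SD of 6 mice. The 2 groups overlap in every panel, Trim63 has 1 control at 77.5 FPKM, and 5 of 6 CKO points of Foxo3 lie above all controls.

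Trim63 encodes MuRF1, a ligase that binds titin at the M-line and whose substrates include myosin heavy chains. Its FPKM was 27.9, 40.03, 24.5, 30.6, 27.8 and 77.5 in controls 1 to 6, and 40.4, 17.8, 31.2, 36.6, 23.9 and 22.8 in CKOs 1 to 6. Control 6 was far above every other mouse, 3 CKOs were below all controls, and the rest of the groups overlapped. The fitted log2 fold change was -0.33 (95% interval -0.89 to 0.22, adjusted p = 0.477). Without control 6 it was -0.10. After scaling it was -0.52 (interval -1.12 to 0.08, adjusted p = 0.434), and -0.27 without control 6. A rise of Trim63 by more than 1.17-fold lay outside the 95% interval of the deposited values with control 6 included. This bound was not taken without that mouse.

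Trim55 encodes MuRF2, which associates with microtubules and with titin during sarcomere assembly. It was 11.1, 10.01, 11.98, 8.93, 9.77 and 10.5 FPKM in controls 1 to 6. In CKOs 1 to 6 it was 7.88, 9.43, 9.44, 9.34, 12.1 and 9.48 FPKM. CKO 5 was the highest of the 12 mice and CKO 1 the lowest. Trim55 had one of the narrowest spreads of the 10 genes, with a coefficient of variation of 10.3% in controls and 14.1% in CKOs. Between the groups the log2 fold change was -0.12 (standard error 0.11, adjusted p = 0.561). After scaling, 5 of 6 CKOs were below all controls and the log2 fold change was -0.30 (standard error 0.11, unadjusted p = 0.0121, adjusted p = 0.196 by limma).

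Trim54 encodes MuRF3, a microtubule-binding ligase of the Z-disc, and had the highest mean of the 10 genes. It was 46.3, 33.3, 48.3, 42.4, 42.1 and 33.6 FPKM in controls 1 to 6, and 29.2, 27.3, 25.7, 36.7, 49.6 and 25.7 FPKM in CKOs 1 to 6. CKOs 1, 2, 3 and 6 were below all controls, CKO 4 lay within them, and CKO 5 was above all of them. The log2 fold change was -0.37 (standard error 0.16, unadjusted p = 0.0375, adjusted p = 0.221 by limma). With 1 mouse left out at a time, the unadjusted call held in 4 of 12 fits, those without control 2, control 6, CKO 4 or CKO 5. After scaling it held in all 12 such fits, and 5 of 6 CKOs were below all controls. The scaled log2 fold change was -0.55 (standard error 0.15, unadjusted p = 0.00215, adjusted p = 0.0875 by limma), and it lay 0.56 below the median of all genes. CKO 5 decided on which side of the threshold the scaled value fell: without it the log2 fold change was -0.69 (adjusted p = 0.00619 by limma). CKO 5 was also the CKO library with the lowest relative depth, 0.984 of that of control 1, and its slow-twitch sum was 37.4 FPKM. Actn3, the alpha-actinin of fast fibers, was 458, 378, 413 and 449 FPKM in CKOs 1, 2, 3 and 6, below all controls. It was 743 and 763 FPKM in CKOs 4 and 5. Other genes of the fast-twitch list differed from Actn3. Tnnc2 was also below all controls in 4 CKOs, but Atp2a1 and Mylpf were so in 0. Myh1 was above all controls in 6 CKOs and Myh4 in 5. The part of depth or of fiber type in the Trim54 difference was not tested.

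Ratios of 2 genes within a mouse were taken on FPKM + 0.1, so that a factor shared by all genes of a library nearly cancels, save in the lowest genes. The Trim55/Trim54 ratio had a median of 0.245 in controls (0.212 to 0.315) and 0.309 in CKOs (0.244 to 0.371). The difference of 0.25 on the log2 scale did not pass the threshold (exact permutation test, two-sided, p = 0.119, 0.357 adjusted over 9 ratios). The Trim63/Trim54 ratio ranged from 0.509 to 2.30 in controls and from 0.482 to 1.38 in CKOs, a log2 difference of 0.03 (exact p = 0.939), and Trim63/Trim55 differed by -0.22 (exact p = 0.545). The 3 MuRF genes thus had negative fold changes with each of the 3 scalings (as deposited, median-ratio and quantile), and their ratios did not differ past the threshold.

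Fbxo32 encodes atrogin-1, whose substrates include MyoD and the initiation factor subunit eIF3f. It was 9.07, 21.1, 12.5, 15.0, 14.6 and 19.4 FPKM in controls 1 to 6, and 31.2, 7.07, 14.7, 22.3, 10.95 and 11.8 FPKM in CKOs 1 to 6. The CKOs held both the highest and the lowest of the 12 values and spread over 4.42-fold, against 2.33-fold in controls. The log2 fold change was -0.02 (adjusted p = 0.978 by limma). Its 95% interval of -0.66 to 0.62 spanned 0.633 to 1.53 times the control level. After scaling it was -0.21 (interval -0.89 to 0.47).

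Fbxo30 encodes MUSA1, an F-box protein that is raised in denervated muscle when BMP signaling is low. It was 2.61 to 3.76 FPKM in controls (median 2.74) and 2.63 to 3.70 FPKM in CKOs (median 2.99). The ranges of the groups nearly coincided, and control 1 was the highest mouse. The log2 fold change was 0.09 (standard error 0.13) as deposited and -0.09 (standard error 0.11) after scaling, so its sign followed the scaling. Relative to the median of all genes it was -0.09 and -0.10.

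Fbxo40 encodes a muscle F-box protein that targets the insulin receptor substrate IRS1. It was 30.9, 28.7, 38.6, 31.9, 29.7 and 25.3 FPKM in controls 1 to 6, and 27.4, 21.4, 24.7, 29.3, 32.8 and 28.9 FPKM in CKOs 1 to 6. CKOs 2 and 3 were below all controls and the other 4 lay among them. As deposited the log2 fold change was -0.17 (standard error 0.12, adjusted p = 0.428). After scaling, 4 of 6 CKOs were below all controls and the log2 fold change was -0.36 (standard error 0.11, unadjusted p = 0.00438, adjusted p = 0.123 by limma).

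Fbxo21 encodes SMART, a further F-box protein under FoxO control. It was the lowest of the 10 genes, at 1.16, 0.717, 1.26, 0.807, 1.21 and 0.753 FPKM in controls 1 to 6. In CKOs 1 to 6 it was 1.27, 1.55, 1.53, 1.41, 0.674 and 0.963 FPKM. CKOs 1 to 4 were above all controls, and CKO 5 was below all of them. As deposited the log2 fold change was 0.28 (standard error 0.21, adjusted p = 0.460) and 0.11 after scaling. The ratios Fbxo32/Fbxo30, Fbxo32/Fbxo40 and Fbxo32/Fbxo21 had log2 differences of -0.11, 0.15 and -0.30, with exact permutation p of 0.799, 0.686 and 0.507.

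Foxo1 encodes a FoxO factor that rises in fasting muscle. It was 1.37, 1.53, 1.41, 2.44, 2.14 and 3.25 FPKM in controls 1 to 6, and 3.18, 1.77, 2.50, 2.42, 2.07 and 2.63 FPKM in CKOs 1 to 6. Controls 1, 2 and 3 were below every CKO, but control 6 was above all of them. As deposited the log2 fold change was 0.30 (standard error 0.21, adjusted p = 0.424) and 0.12 after scaling.

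Foxo3 encodes the factor whose active form induces Fbxo32 and autophagy genes in muscle. It was 1.02, 1.74, 1.17, 1.68, 1.89 and 1.91 FPKM in controls 1 to 6, and 2.93, 1.72, 3.05, 2.46, 2.15 and 2.60 FPKM in CKOs 1 to 6. CKO 2 lay among the controls and the other 5 CKOs were above all of them. With the FPKM as deposited the log2 fold change was 0.64 (standard error 0.18, 95% interval 0.26 to 1.03, unadjusted p = 0.00285, adjusted p = 0.0762 by limma), a 1.56-fold difference. It lay 0.47 above the median of all genes. After scaling, 4 of 6 CKOs were above all controls and the log2 fold change was 0.46 (unadjusted p = 0.0389, adjusted p = 0.322 by limma). With 1 mouse left out at a time the unadjusted call held in all 12 fits as deposited, and in 6 of 12 after scaling, being lost without control 1, control 3 or CKO 1, 3, 4 or 6. CKO 2 decided the adjusted call as deposited, with an adjusted p of 0.0416 by limma without it. As deposited, the 3 CKOs with the highest Foxo3, CKOs 1, 3 and 6, were those with the highest slow-twitch sums. Foxo3 in the other 3 CKOs stood at 1.72, 2.46 and 2.15 FPKM. Within the slow-twitch list Myl3 did not follow the sums, and was lowest of the 12 mice in CKO 3 (8.80 FPKM). CKO 4 was above all controls in Myh7, Tnni1 and Tpm3. After scaling the match of Foxo3 with the sums did not hold, since Foxo3 in CKO 4 (2.377 FPKM) was above that in CKO 6 (2.365 FPKM). The satellite cell sum was likewise higher in all 6 CKOs than in any control, although none of its 3 genes was so alone. The part of either in the Foxo3 difference was not tested.

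Foxo4, a further FoxO factor, was 9.42, 8.71, 10.5, 9.95, 10.4 and 9.56 FPKM in controls 1 to 6, and 7.66, 6.57, 8.58, 11.4, 14.2 and 8.36 FPKM in CKOs 1 to 6. CKOs 1, 2, 3 and 6 were below all controls while CKOs 4 and 5 were above all of them. The coefficient of variation was 6.85% in controls and 29.8% in CKOs, and no test of the spread was made. The 4 low CKOs were those with Actn3 below all controls. Within the same fast-twitch list Myh1 and Myh4 went the other way, above all controls in 6 and 5 CKOs. The part of Actn3 or of fiber type was not tested. The log2 fold change was -0.09 (standard error 0.16, adjusted p = 0.775), and -0.27 after scaling (adjusted p = 0.478 by limma).

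Foxo4 was the most abundant of the 3 FoxO transcripts in every mouse. The Foxo4/Foxo3 ratio had a median of 5.46 in controls (4.79 to 8.46) and 3.399 in CKOs (2.56 to 6.35). The log2 difference was -0.73 (exact permutation test, two-sided, p = 0.0238, 0.146 adjusted over 9 ratios). With FPKM + 1 in place of FPKM + 0.1 it was -0.52 (exact p = 0.0281). The Foxo1/Foxo3 ratio had a median of 1.25 in controls (0.885 to 1.66) and 0.996 in CKOs (0.824 to 1.08), a log2 difference of -0.34 (exact p = 0.0325, adjusted 0.146). Both ratios share Foxo3, and neither passed the adjusted threshold. The lowest 3 Foxo4/Foxo3 ratios among CKOs were those of CKOs 1, 3 and 6. Without 1 mouse at a time the Foxo1/Foxo3 difference no longer passed the unadjusted threshold in 5 of 12 cases (controls 1, 4 and 6 and CKOs 3 and 5), with exact p between 0.0541 and 0.0693. The Foxo1/Foxo4 ratio differed by 0.39 on the log2 scale (exact p = 0.197).

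**Figure D2:**
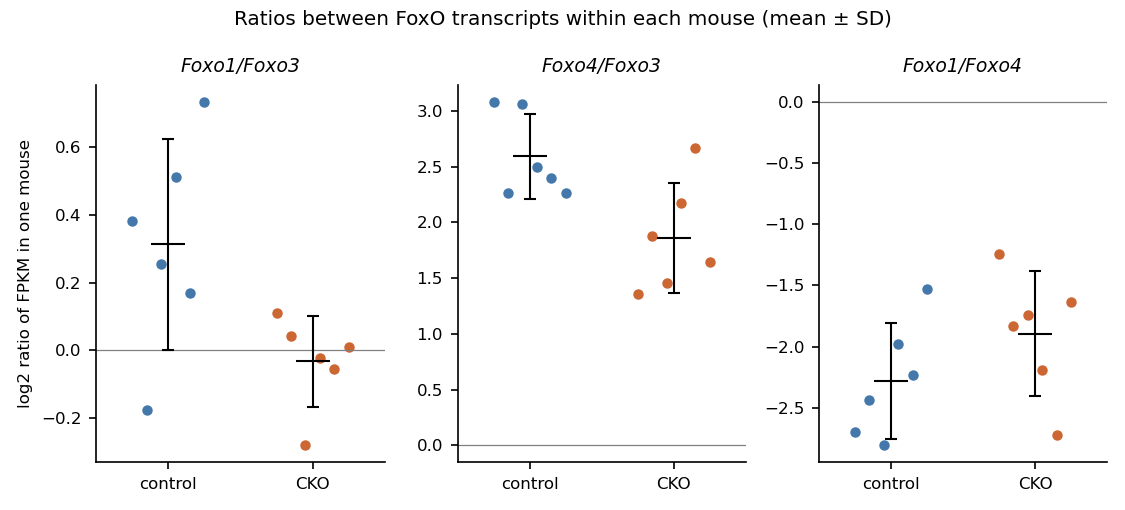
Within-mouse log2 ratios of FPKM + 0.1 (vertical axes) between the 3 FoxO transcripts in controls and CKOs. Points are mice, black lines with bars are the mean ± SD of 6 mice, and the gray line marks equal levels. Foxo4/Foxo3 averaged 2.59 in controls and 1.86 in CKOs with overlapping points, and every mouse had more Foxo4 than Foxo1.

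**Figure D3:**
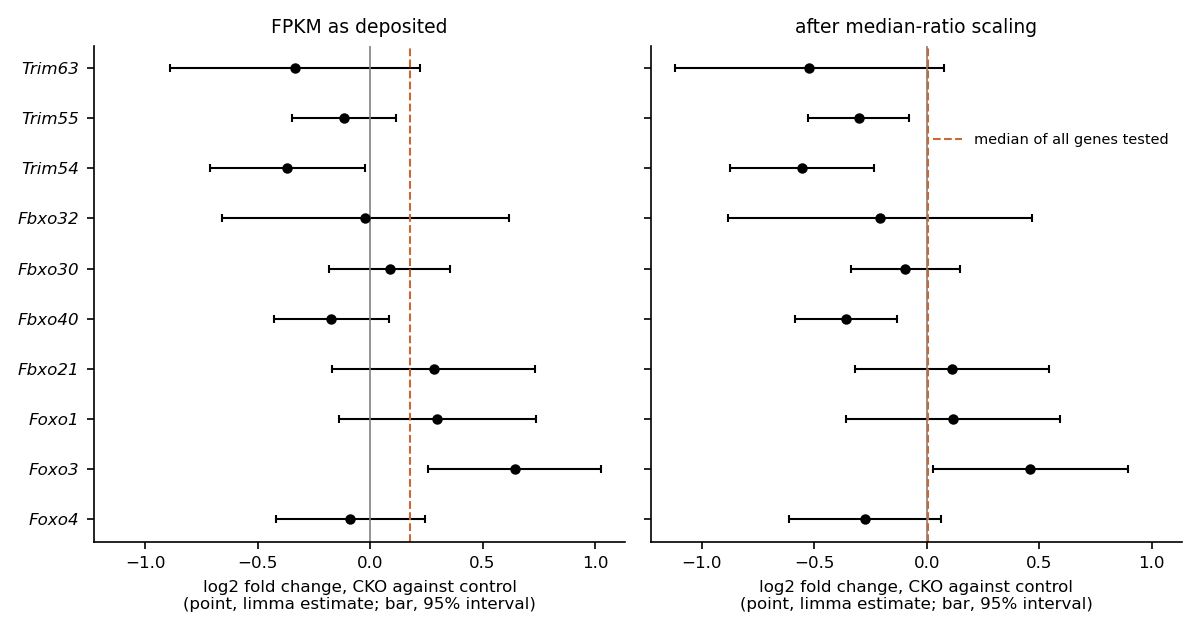
Log2 fold changes of CKO over control (horizontal axis) of the 10 genes from limma, as deposited (left) and after median-ratio scaling (right). Points are estimates, bars 95% intervals, the gray line marks 0 and the dashed line the median of all genes tested, 0.18 and 0.01. Trim54 lies to the left of 0 and Foxo3 to the right in both panels, and the bars of Trim55 and Fbxo40 clear 0 on the right panel but not on the left.

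The genes were also compared over the 12 mice, as log2(FPKM + 0.1), for all 45 pairs. Trim63 and Fbxo32, the classic pair of atrogenes, varied together from mouse to mouse (Pearson r = 0.734, permutation p = 0.00599, adjusted over 45 pairs 0.0674; Spearman rho = 0.867, adjusted 0.0110). Without control 6 and CKO 2, the mice farthest from the median of Trim63, r was 0.867. Within the 6 CKOs r was 0.974 (exact permutation p = 0.00278), and within the 6 controls it was 0.670 (exact p = 0.153). After scaling r was 0.780 (adjusted 0.0290). The mice that were high in both genes were CKOs 1 and 4 and controls 2 and 6, from both groups.

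Trim54 varied with Fbxo40 (r = 0.785, permutation p adjusted over 45 pairs 0.0458, rho = 0.881, adjusted 0.0110) and with Foxo4 (r = 0.769, adjusted 0.0458, rho = 0.811, adjusted 0.0332). Without CKO 5 and control 3, the mice farthest from the median of Trim54, r was 0.691 with Fbxo40 and 0.685 with Foxo4. Within groups r with Fbxo40 was 0.824 in controls and 0.707 in CKOs. With Foxo4 it was 0.680 and 0.890. After scaling r over the 12 mice was 0.850 with Fbxo40 (adjusted 0.0194) and 0.827 with Foxo4 (adjusted 0.0308), but rho with Foxo4 did not pass (adjusted 0.126) and r with Foxo4 within controls was 0.265. Trim54 with Trim55 (r = 0.7499) and Fbxo40 with Foxo4 (r = 0.7745) then also passed on r (adjusted 0.03345 each). Their rho did not pass (adjusted 0.126 each). Within controls scaled r was -0.38 for Trim54 with Trim55 (exact permutation p = 0.439) and 0.47 for Fbxo40 with Foxo4. Within CKOs these were 0.71 and 0.89. The permutations pooled the groups, so a group difference shared by 2 genes adds to r. With group means subtracted, scaled r of Trim54 was 0.685 with Fbxo40, 0.821 with Foxo4 and 0.512 with Trim55. For Fbxo40 with Foxo4 it was 0.737. Foxo1 and Foxo3 had r = 0.780 (adjusted 0.0458) and rho = 0.734 (adjusted 0.0782). That relation rested in part on controls 1 and 3, which were low in both, since r was 0.541 without them, and 0.360 after scaling. For Trim63 and Trim54 r was -0.08 over the 12 mice (permutation p = 0.821). It was -0.84 within controls (exact permutation p = 0.0167, unadjusted) and 0.06 within CKOs (exact p = 0.903).

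**Figure D4:**
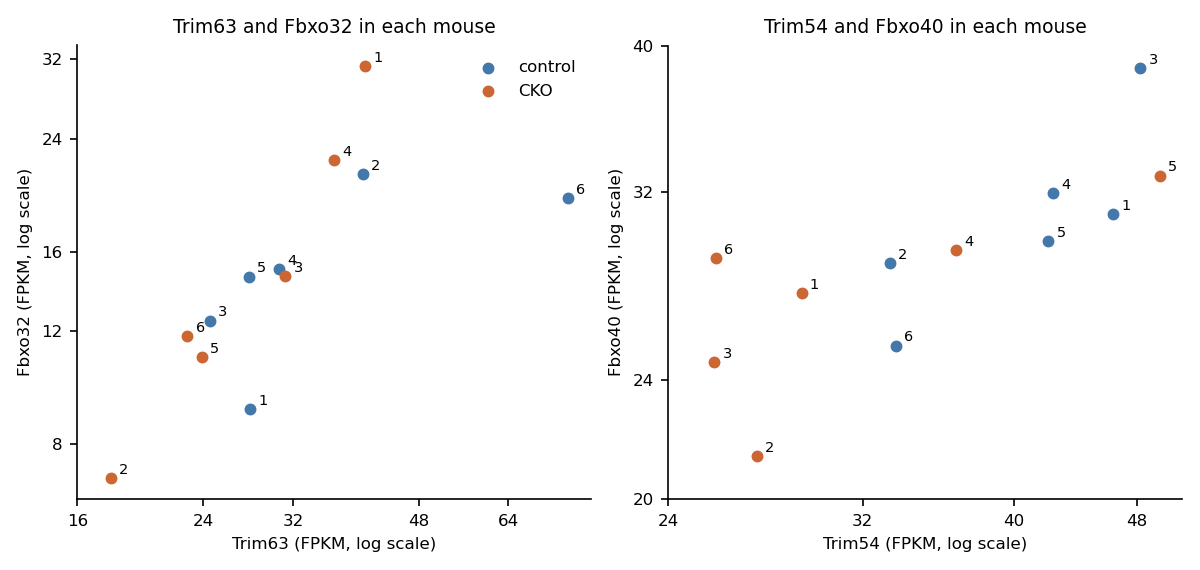
FPKM of Fbxo32 against Trim63 (left) and of Fbxo40 against Trim54 (right) in each mouse, on log axes. Points are mice, numbered within their group. CKO 1 is high and CKO 2 lowest in both Trim63 and Fbxo32 among CKOs, and CKO 5 lies with the controls at the upper end of Trim54 and Fbxo40.

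The genes most like a member were taken as the 5 with the highest Pearson r over the 12 mice, given as a description. For Trim63 they were Rnf150 (r = 0.843), Ppargc1a (0.836), Cnga3 (0.825), Nr4a1 (0.815) and Map3k14 (0.814). Ppargc1a, the coactivator of mitochondrial genes, reached 28.9 FPKM in controls against a median of 8.88 and ranged from 6.82 to 9.07 FPKM in CKOs. Nr4a1, a nuclear receptor induced by contraction, was 4.97 to 37.4 FPKM in controls and 3.90 to 14.7 FPKM in CKOs. For Fbxo32 the list was 4933431E20Rik (0.888), Ddi2 (0.853), Ipo13 (0.840), Pde7a (0.823) and Gatsl2 (0.815). For Trim54 r was higher, at 0.965 for Gpd2, 0.954 for Slc15a5, 0.953 for Phka1, 0.947 for Uts2r and 0.947 for Smox. Gpd2, the mitochondrial glycerol phosphate dehydrogenase, was 17.4 to 26.1 FPKM in controls and 12.9 to 23.7 FPKM in CKOs. Phka1, the muscle subunit of phosphorylase kinase, was 53.8 to 92.2 FPKM and 39.1 to 76.4 FPKM. Uts2r, Cnga3 and 4933431E20Rik stayed below 0.39 FPKM in all mice, where few fragments stand behind a value.

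The other genes of the pathway were counted in 5 lists, which together held 149 tested genes. All 5 lists were chosen with earlier results of these data known, so their shares are descriptions and not separate results. With unadjusted p, 35 passed as higher and 4 as lower as deposited, which is 23.5% and 2.68% beside 18.1% and 1.76% of all genes. After scaling 18 and 23 passed, 12.1% and 15.4% beside 6.62% and 7.44%. With adjusted p, 4 passed as higher and 1 as lower, beside 2.02% and 0.268% of all genes. After scaling 1 and 4 passed it, beside 0.764% and 0.709%. The median log2 fold change of the list genes was 0.14 as deposited, beside 0.18 for all genes, and -0.04 after scaling, beside 0.01. Genes outside the 3 smallest p-values of a list are named here after their values were seen.

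Of 40 other ligases and ligase partners, 11 passed the unadjusted threshold as higher (27.5%, beside 18.1% of all genes) and 0 as lower, with a median of 0.18. After scaling 7 were higher (17.5%, beside 6.62%) and 6 lower (15%, beside 7.44%). The 2 that passed the adjusted threshold were Cblb and Pdlim2. Cblb, a ligase that acts on IRS1 in unloaded muscle, rose from 1.38 ± 0.0935 to 2.23 ± 0.371 FPKM (SD, n = 6), and every CKO was above every control (log2 fold change 0.64, adjusted p = 0.0187 by limma, 0.0989 after scaling). Without CKO 1 or CKO 3 it lost the call as deposited, with an adjusted p of up to 0.0558. Pdlim2, an adaptor that directs NF-kappaB p65 to ubiquitination, rose from 0.158 ± 0.140 to 0.510 ± 0.0975 FPKM (log2 fold change 1.37, adjusted p = 0.0188 by limma, 0.0278 after scaling). With 1 mouse left out at a time the call held in all 12 fits as deposited and in 4 of 12 after scaling, those without control 1, control 6, CKO 4 or CKO 5 (adjusted p up to 0.0681). Its control values reached down to 0.0480 FPKM, where few fragments stand behind a value. Klhl40, an adaptor that stabilises thin filament proteins, was 9.73 ± 3.88 and 16.2 ± 3.83 FPKM (log2 fold change 0.77, adjusted p = 0.0655).

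Of 31 ubiquitin, E2 and deubiquitinase genes, 5 passed the unadjusted threshold as higher (16.1%, beside 18.1% of all genes) and 0 as lower, and none passed the adjusted one in limma. The 5 included Uchl1, Ube2g2, Uba1 and Usp7. Uchl1, a hydrolase of neurons and denervated fibers, was listed at 0 in the lowest control and at 0.571 FPKM in the highest, against 0.574 to 3.42 FPKM in CKOs (log2 fold change 2.01, adjusted p = 0.0623). Ube2g2, an E2 enzyme of the endoplasmic reticulum, was 8.28 ± 2.12 and 12.3 ± 2.27 FPKM (log2 fold change 0.58, adjusted p = 0.0669). After scaling 3 were higher (9.68%, beside 6.62%), among them Uchl1 and Ube2g2, and 7 lower (22.6%, beside 7.44%).

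Of 39 FoxO target genes of atrophy other than the members, 7 passed the unadjusted threshold as higher (17.9%, beside 18.1% of all genes) and 3 as lower (7.69%, beside 1.76%), with a median of 0.12. Mstn, which encodes myostatin, the inhibitor of muscle growth, was the only one to pass the adjusted threshold. It fell from 8.45 ± 2.11 to 3.83 ± 1.60 FPKM (log2 fold change -1.18, standard error 0.24, adjusted p = 0.0188 by limma). After scaling it was -1.36 (adjusted p = 0.00790 by limma), and the call then held without any 1 mouse. As deposited it was lost without CKO 1 or CKO 6 (adjusted p up to 0.0527). The groups overlapped, with 5.82 FPKM in the lowest control and 6.70 FPKM in the highest CKO. The other 2 lower genes were Txnip, which encodes a thioredoxin inhibitor (89.0 and 51.8 FPKM, log2 fold change -0.89, adjusted p = 0.0817), and Tgif1 (1.36 and 0.888 FPKM, log2 fold change -0.52, adjusted p = 0.190). Among the higher ones were Klf15, a factor of the glucocorticoid response (log2 fold change 0.57, adjusted p = 0.0573), and Map1lc3a, which encodes an LC3 protein of autophagosomes (0.44, adjusted p = 0.0789). After scaling 4 genes, Klf15, Sesn1, Gadd45a and Ctsl, were higher (10.3%, beside 6.62% of all genes) and 6 lower (15.4%, beside 7.44%). Mstn, Txnip and Sqstm1 then passed the adjusted threshold as lower.

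Of 31 regulators of FoxO proteins, 6 passed the unadjusted threshold as higher (19.4%, beside 18.1% of all genes) and 0 as lower, with a median of 0.16. Prkaa1, which encodes the alpha1 catalytic subunit of AMPK, rose from 2.31 ± 0.295 to 3.52 ± 0.557 FPKM, with every CKO above every control (log2 fold change 0.58, adjusted p = 0.0303 by limma, 0.0814 after scaling). With 1 mouse left out at a time the call as deposited held in 5 of 12 fits (adjusted p 0.0107 to 0.0886), being lost without control 2, 3, 4 or 6 or CKO 1, 3 or 6. Foxo6, the remaining FoxO gene, was 0.514 ± 0.169 and 0.880 ± 0.260 FPKM (log2 fold change 0.68, adjusted p = 0.136). Akt2, a kinase that phosphorylates FoxO proteins, was 5.57 ± 0.774 and 7.35 ± 1.67 FPKM (log2 fold change 0.37, adjusted p = 0.195). After scaling Prkaa1 alone was higher at the unadjusted threshold (3.23%, beside 6.62% of all genes). Sgk1, Ppargc1a and Prkaa2 were lower at it (9.68%, beside 7.44%).

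Of 9 tested denervation-responsive genes, 7 passed the unadjusted threshold as higher (77.8%, beside 18.1% of all genes) and 1 as lower (11.1%, beside 1.76%), with a median of 0.62. Like the other lists, this one was chosen with earlier results of these data known, and the paper had reported Myog raised in this muscle. Its share is therefore a description and not a separate result. After scaling 4 were higher (44.4%, beside 6.62% of all genes), namely Chrna1, Ncam1, Myog and Gadd45a. In the same fit 1 was lower (11.1%, beside 7.44%), and the median was 0.45. Chrna1, the acetylcholine receptor alpha subunit, passed the adjusted threshold as deposited (log2 fold change 0.81, adjusted p = 0.0331) but not after scaling (0.102), and the call held in 5 of 12 fits with 1 mouse left out, being lost without control 2, 3, 4 or 6 or CKO 1, 3 or 6. Ncam1, an adhesion molecule of denervated and regenerating fibers, was 0.660 to 1.08 FPKM in controls and 0.880 to 3.36 FPKM in CKOs (log2 fold change 0.94, adjusted p = 0.0623). Dach2, a repressor of Myog, was 0.224 to 0.775 FPKM in controls and 0.0271 to 0.297 FPKM in CKOs (log2 fold change -1.14, adjusted p = 0.0639). After scaling Dach2 passed the adjusted threshold (log2 fold change -1.26, adjusted p = 0.0496 by limma), which held in 2 of 12 fits with 1 mouse left out, those without control 1 or CKO 5. Ncam1 is also expressed in satellite cells and Schwann cells. Its part was not tested, and the 4 Schwann cell genes summed to 3.33 to 8.21 FPKM in controls and 6.09 to 11.8 FPKM in CKOs.

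**Figure D5:**
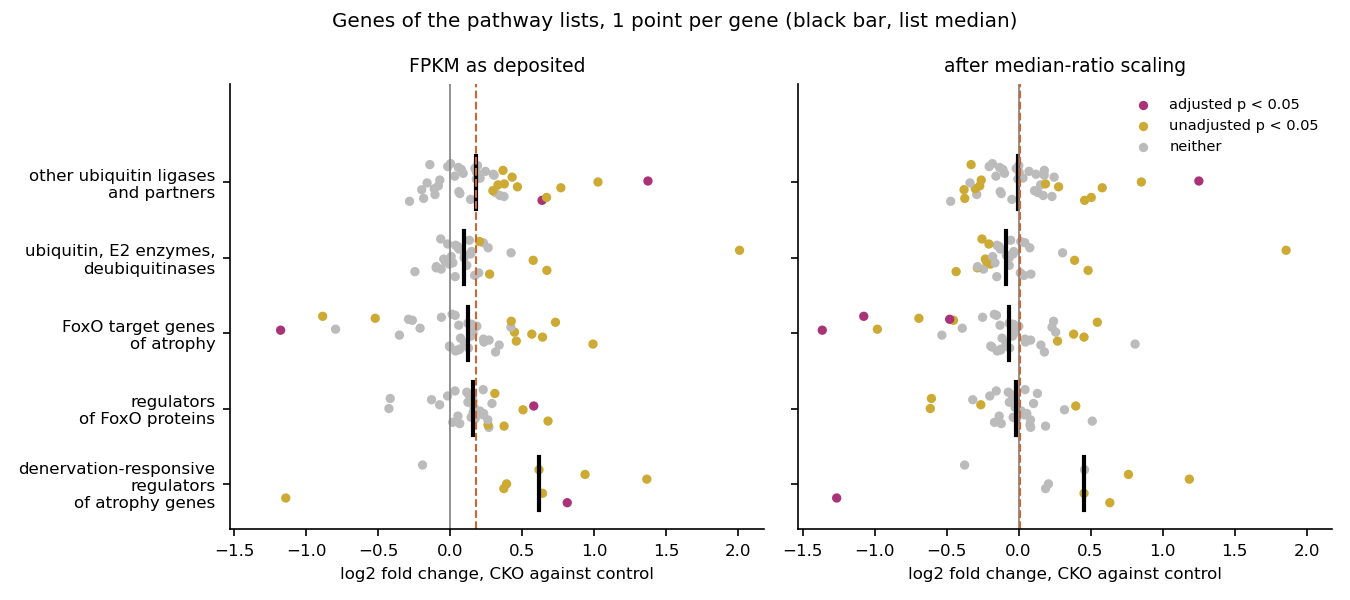
Log2 fold changes of CKO over control (horizontal axis) of the tested genes of 5 pathway lists, as deposited (left) and after median-ratio scaling (right). Points are genes, colored by limma p, black bars are list medians, the gray line marks 0 and the dashed line the median of all genes. The medians of the first 4 lists lie between 0.10 and 0.18 on the left and at or below 0 on the right, and that of the denervation list is at 0.62 and 0.45.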

How the data were processed

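RNA of 12 tibialis anterior muscles was measured by RNA-seq, with 6 mice per group. The authors removed ribosomal RNA before library preparation. Trimmed reads were aligned by them with tophat on bowtie2, with up to 2 mismatches, and only reads with 1 place in the genome were kept. The submitters' processing notes name TopHat2 2.0.10, Cufflinks 2.1.1 and mm9. The deposited values are FPKM per gene symbol, computed by the authors with cufflinks. The annotation is not given in the sources used here. Of 23950 entries per file, 27 with a date in place of a symbol were left out. Depth in reads is unknown. Relative depth came from the spacing of the lowest FPKM, under 0.15. Discarding reads that map to several places can lower genes with close copies.

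Controls and CKOs were compared with limma 3.58.1 in R 4.3.3 on log2(FPKM + 0.1), with an intensity trend and no block, after removal of genes under 0.1 FPKM in more than 6 samples. Fold changes on this scale understate those of low genes. Median-ratio scaling used the 12178 genes above 0 in all samples. Ratios within a mouse were tested by exact permutation of the groups (924 assignments), whose smallest p is 0.002165. Correlations used 100000 permutations over 12 mice, or all orders within a group. The code was tested on simulated data. Alternatives were median-ratio and quantile scaling, no filter or a filter at 1 FPKM, a pseudocount of 1, the replicate number as a block, no trend, sample weights and each mouse left out. The text names all 10 members, Smyd1, the 3 genes of smallest p and those past the adjusted threshold in each list, and the 5 genes most like Trim63, Fbxo32 and Trim54. A gene that meets this rule is not reported here, and it stays in the fit and the counts. The members and lists were chosen with earlier results of these data known. The isoform Mitr and 1 low gene of the denervation list were not tested. Promoter windows were those of RefSeq (GRCm38.p6), matched by symbol for 7 of 10 members.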

Additional observations from a re-analysis of the deposited data

Results flagged for a closer look

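The per-mouse FPKM of the 10 genes and Smyd1 were screened for mice far from the rest of their group, in 22 groups of 6. Chance alone places about 1 in 20 groups past the limit used, and 2 were past it. Trim63 in control 6 was 77.53 FPKM, while the other 5 controls were 24.5 to 40.03 FPKM. Its gap to the nearest control was 0.707 of the range of the group. After median-ratio scaling Trim63 in control 6 was 87.1 FPKM, against 46.8 FPKM in control 2, the next control. Ppargc1a and Nr4a1 also had control maxima of 28.9 and 37.4 FPKM, against medians of 8.88 and 15.5. These 2 genes were picked for their correlation with Trim63 over the same mice, so they are no separate evidence about control 6. Fbxo30 in control 1 was 3.755 FPKM, while the other 5 controls were 2.61 to 2.99 FPKM, with a gap of 0.666 of the range. After median-ratio scaling Fbxo30 was 3.367 FPKM in control 1 and 3.360 FPKM in control 6, so control 1 no longer stood apart. Control 1 also had the largest FPKM sum of the 12 libraries, 156610, and the highest sums of the fast-twitch (41718 FPKM), fibroblast (654), adipocyte (305.7), erythrocyte (51.9), tendon (20.9) and macrophage (6.18) genes. What set these mice apart was not tested.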

How the results depend on the processing

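The files hold no counts, so no count model could be fitted, and precision at low FPKM is unknown. Across 33 alternative fits the log2 fold changes of Trim63, Trim55, Trim54, Fbxo40, Fbxo21 and Foxo3 kept their sign. Fbxo32 was 0.059 with sample weights, and Fbxo30 was -0.09 with median-ratio scaling (-0.09458), quantile normalization (-0.09476) and the block with scaling (-0.09458). Leaving out 1 mouse at a time, with or without scaling, gave -0.64 to -0.10 for Trim63, -0.69 to -0.31 for Trim54, -0.37 to -0.06 for Trim55, -0.41 to 0.18 for Fbxo32, -0.15 to 0.16 for Fbxo30, -0.41 to -0.10 for Fbxo40, 0.028 to 0.43 for Fbxo21 (highest without CKO 5, unadjusted p = 0.0372 by limma), -0.020 to 0.44 for Foxo1, 0.31 to 0.74 for Foxo3, -0.40 to 0.0060 for Foxo4 and -0.36 to -0.06 for Smyd1. The adjusted p ranged from 0.00619 to 0.359 for Trim54 and from 0.0261 to 0.498 for Foxo3 over all fits, and Foxo3 passed with sample weights. Without 1 mouse the within-mouse log2 ratios ranged from -0.12 to 0.32 for Trim63/Trim54, from -0.38 to 0.0069 for Trim63/Trim55, from -0.32 to 0.14 for Fbxo32/Fbxo30, from -0.067 to 0.29 for Fbxo32/Fbxo40, from -0.51 to -0.026 for Fbxo32/Fbxo21, from 0.20 to 0.32 for Trim55/Trim54, from 0.26 to 0.55 for Foxo1/Foxo4, from -0.44 to -0.26 for Foxo1/Foxo3 and from -0.89 to -0.63 for Foxo4/Foxo3. With a pseudocount of 1 these last were -0.24 and -0.52. The cause of these changes was not tested.

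Members called higher at the unadjusted threshold numbered 0 with the block and scaling, and 0 to 2 without 1 mouse. Members called lower numbered 3 with median-ratio scaling, 3 with quantile normalization, 4 with the block and scaling, 0 without the trend, and 0 to 4 without 1 mouse. At the adjusted threshold 1 member was higher with sample weights, and 0 to 1 in each direction without 1 mouse. Of all genes, 841, 810 and 855 passed the unadjusted threshold as higher and 944, 837 and 947 as lower with median-ratio scaling, quantile normalization and the block with scaling, and 3704 were higher with sample weights, beside 2300 and 224 in the fit reported. At the adjusted threshold 97, 101 and 91 were higher and 90, 68 and 83 lower with those 3 settings, 1400 and 115 with sample weights, and 170 higher with no filter, beside 257 and 34. Without 1 mouse the ranges were 661 to 3428, 196 to 1155, 46 to 1067 and 18 to 199. Of the 149 list genes, 18, 20 and 18 passed the unadjusted threshold as higher and 23, 12 and 24 as lower with those 3 settings. With sample weights 7 were lower at it. At the adjusted threshold 1, 1 and 0 were higher and 4, 2 and 3 lower, and 26 and 2 with sample weights. Without 1 mouse the ranges were 14 to 42, 3 to 35, 0 to 21 and 0 to 7.

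The replicate numbers showed little sign of pairing the mice, although a check on 6 numbers cannot settle whether any were paired. Deviations of mice with the same number correlated at 0.0404 on average (-0.0861 to 0.164), against -0.00879 for other pairs, and 2 of 6 numbers matched best with themselves. With the number as a replicate block the log2 fold changes were the same, with adjusted p of 0.169 for Trim54 and 0.118 for Foxo3. The block called 1 member in each direction at the unadjusted threshold, 2442 and 250 of all genes, and 272 and 40 at the adjusted one. Of the list genes it called 7 lower at the unadjusted threshold and 9 higher at the adjusted one.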
